A study of Mus musculus with 4 samples.

Results

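Dppa2, Dppa3, Dppa4, Dppa5a, Utf1, Tdgf1, Lin28a, Lin28b, Sall4 and Nr5a2 are 10 genes known for their expression in pluripotent cells and the early embryo, and their mRNA was followed here in Bmal1-/- and wild-type mouse embryonic stem cells (mESCs). The genes were chosen by name, as developmental pluripotency associated genes and partners. Each was found in the deposited table through its Ensembl identifier, so that all 10 of the 10 were located among 37310 genes, and all 10 were among the 14510 genes expressed highly enough to be tested.

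The series holds 4 mRNA-seq libraries, 2 labelled wild-type and 2 labelled Bmal1-/-, made to ask what the loss of Bmal1, a transcription factor of the circadian clock, does in pluripotent cells. The wild-type cells are the parental JM8 line, derived from the C57BL6/N mouse strain. The Bmal1-/- cells are 1 clone of that line, made with CRISPR/Cas9, with different frameshift mutations in exon 5 of its 2 alleles. Both grew without feeder cells, on gelatin, in 2i + LIF: leukemia inhibitory factor with 1 µM PD0325901, a Mek inhibitor, and 3 µM CHIR99021, a Gsk3 inhibitor. Each genotype is 1 line, so a difference between the lines and a difference due to Bmal1 cannot be told apart. The titles number the libraries of a genotype Exp 1 and Exp 2, and the paper calls them biological replicates. Separate cultures are not named, so the spread between these libraries may be in part technical. The p-values measure that spread, drawn for each gene towards the trend over all genes tested.

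mESCs in 2i + LIF are held in the naive state, which resembles the epiblast of the blastocyst before implantation. Pluripotency rests there on a core of transcription factors, Pou5f1 (Oct4), Sox2 and Nanog, and on further factors. The 10 genes were not chosen as markers of the naive state. They encode RNA-binding proteins (Lin28a, Lin28b, Dppa5a), chromatin-associated proteins (Dppa2, Dppa4, Dppa3, Utf1), a co-receptor of the Nodal ligand (Tdgf1) and transcription factors (Sall4, Nr5a2).

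The libraries held 21504265 to 23329034 reads on genes. The unit throughout, unless a level per length is named, is the authors' normalized value: the reads of a gene scaled by a factor of its library (trimmed mean of M values, TMM), so that 3 reads equalled a value of 2.82 to 3.19. The correlation across genes was 0.995 between the wild-type libraries and 0.996 between the Bmal1-/- libraries, against 0.972 to 0.973 between genotypes. The mRNA of Bmal1 itself, listed as Arntl, had values of 678 and 733 in wild-type and 556 and 590 in Bmal1-/- (log2 fold change −0.30, standard error (SE) 0.069, adjusted p = 0.0011). Frameshifted mRNA can still be transcribed and counted, so this level does not check the genotype labels. In the authors' RT-qPCR, Bmal1 mRNA was not detected in the Bmal1-/- cells, which differs from the level counted here. The reason for the difference was not tested. All 7 mESC markers examined were tested in the libraries, with summed values of 106840 to 109574 in wild-type and 115248 to 117440 in Bmal1-/-. Of these 7 markers 3 were higher and 4 lower in Bmal1-/-, with a median log2 fold change of −0.13. Fibroblast markers summed to 69.5 to 107 in any library, with Col1a2, Col3a1, Dcn and Lum at or under 3 reads.

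Of the 10 genes, 3 were higher in Bmal1-/- mESCs (Dppa2, Sall4, Tdgf1), 5 were lower (Lin28a, Dppa3, Utf1, Lin28b, Dppa5a) and 2 did not pass the test (Dppa4, Nr5a2). A gene passed with an adjusted p-value under 0.05 (limma on log2(value + 1), Benjamini-Hochberg adjustment over all genes tested). The 8 of 10 that passed stand against 52.6% of all genes tested, the 5 lower against 28.6% and the 3 higher against 24.0%. Lin28a was the 1 gene of the 10 that also passed the 2-fold threshold, which 7.21% of all genes tested passed. The wild-type and Bmal1-/- values did not overlap for 9 of the 10 genes, the exception being Nr5a2, and for 76.0% of all genes tested. The median log2 fold change of the 10 genes was −0.025, that of all genes −0.030. In bulk RNA, fewer cells that express a gene and less of its RNA per cell cannot be told apart.

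**Figure D1:**
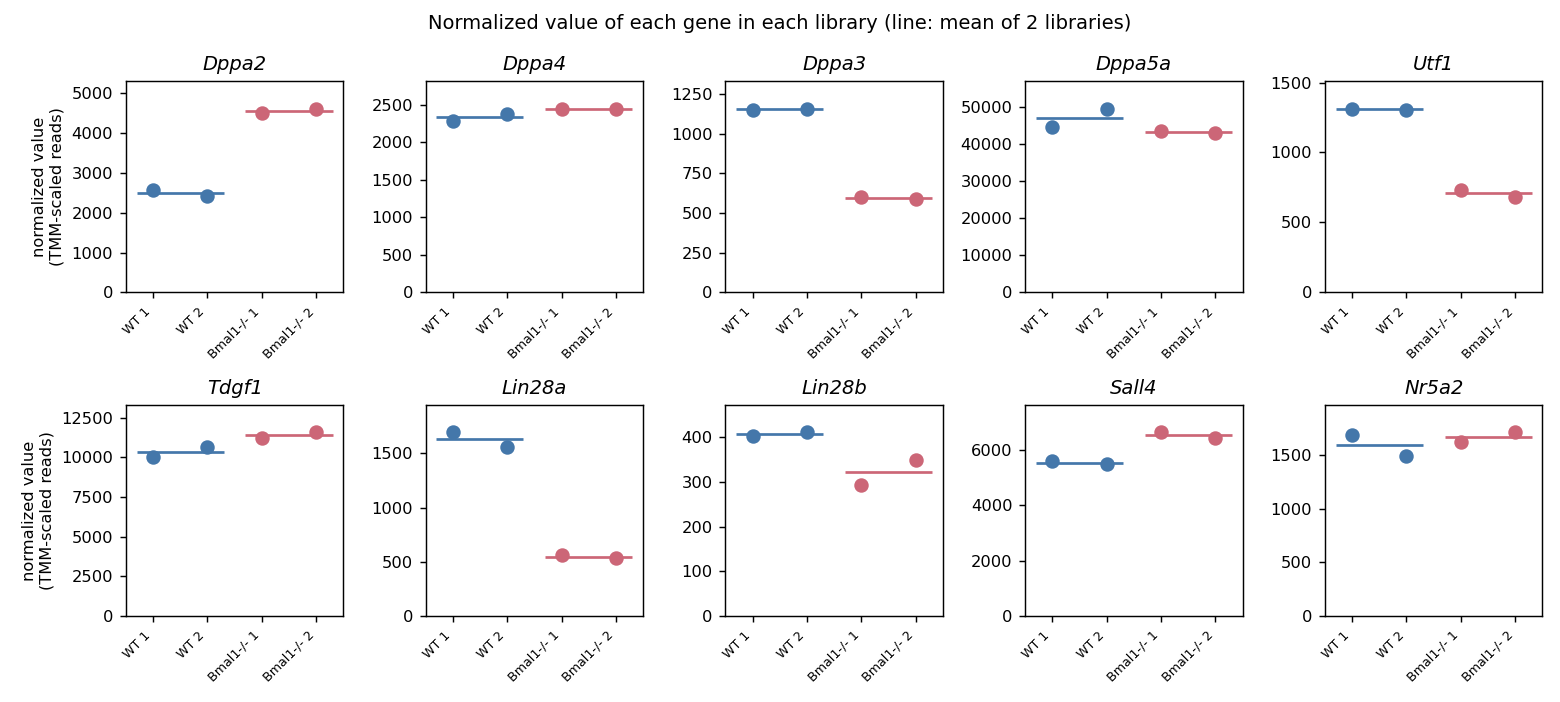
Normalized values (reads scaled by TMM, linear axes from 0) of the 10 genes in the 2 wild-type (WT, blue) and 2 Bmal1-/- (red) libraries, with each point 1 library and each line the mean of 2. Lin28a fell from 1693 and 1560 to 563 and 535, Dppa2 rose from 2581 and 2412 to 4503 and 4618, and Nr5a2 is the only gene whose groups overlap.

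Lin28a fell most among the 10 genes, to 33.7% of its wild-type mean. It encodes an RNA-binding protein that binds the precursors of the let-7 microRNAs and blocks their maturation, and it is best known as a gene of undifferentiated and reprogrammed cells. The gene (ENSMUSG00000050966) lies at chr4:133559245-133574756 on the minus strand of mm9, the genome build of the table. Its values were 1693 and 1560 in wild-type and 563 and 535 in Bmal1-/-. Both Bmal1-/- libraries thus lay far below both wild-type libraries, and the gap was much wider than the spread within either genotype. The log2 fold change was −1.57 (SE 0.061, 95% interval −1.69 to −1.44, adjusted p = 2.7e-14), and 53 of the 14510 genes tested had a lower one.

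Lin28b, the paralog with the same activity on let-7, fell less, to 78.9% of its wild-type mean. The gene (ENSMUSG00000063804, chr10:45096426-45206201, minus strand) had values of 403 and 411 in wild-type and 294 and 349 in Bmal1-/-. The groups did not overlap, but the Bmal1-/- libraries differed from each other by about as much as the higher of them differed from wild-type. Its log2 fold change was −0.35 (SE 0.091, 95% interval −0.54 to −0.16, adjusted p = 0.0032). Without the first Bmal1-/- library it was −0.22 and did not pass (adjusted p = 0.10), and DESeq2 on the whole reads did not call it either (−0.31, adjusted p = 0.070).

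The balance of the paralogs was compared within each library. The log2 ratio of Lin28a over Lin28b was 2.07 and 1.92 in wild-type and 0.93 and 0.61 in Bmal1-/-. The difference of the means was −1.22, against standard deviations (SD) of 0.10 and 0.23. An exact two-sided permutation test over the 4 libraries gave p = 0.333, which is the smallest p that 2 against 2 libraries allow. Per length of merged exons, Lin28a mRNA exceeded Lin28b mRNA 10.9-fold and 9.82-fold in the wild-type libraries and 4.95-fold and 3.96-fold in the Bmal1-/- libraries. With the length of the longest transcript the ratios were smaller, at 6.47 and 5.85 in wild-type and 2.95 and 2.36 in Bmal1-/-. Lin28a remained the more abundant paralog in every library.

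Lin28 proteins recognise a GGAG motif in the loop of let-7 precursors, and the sequences are shown because they are the targets of the most changed gene of the set. RefSeq (GRCm38.p6) lists 12 hairpins of the let-7 family, and 9 of them hold GGAG in the loop. The hairpin of let-7g, at chr9:106178840-106178927 on the plus strand, is given with that motif in capitals, and 3 mature sequences follow with the seed (bases 2 to 8) in capitals.
Mirlet7g: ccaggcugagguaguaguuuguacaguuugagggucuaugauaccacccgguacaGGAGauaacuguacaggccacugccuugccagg
mmu-let-7g-5p: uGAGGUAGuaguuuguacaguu
mmu-let-7a-5p: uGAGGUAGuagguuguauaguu
mmu-miR-98-5p: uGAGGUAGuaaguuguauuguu
All 9 mature 5p sequences of the family share the seed GAGGUAG. These libraries were made from polyadenylated mRNA and do not measure mature microRNAs: the 9 let-7 genes in the table held 0 to 10 reads in any library, and let-7 levels were not analysed here.

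The match of that seed, CTACCTC, was searched for on the transcribed strand of the 3′ UTR of each gene's longest annotated transcript. It occurs in 8.23% of 19909 genes, and among the 10 genes in Lin28b (4 matches), Lin28a (2) and Sall4 (1). The Lin28a matches and the first and last Lin28b matches are shown 5′ to 3′ with 22 bases each and the seed match in capitals. All lie on the minus strand of mm9, the Lin28a matches at chr4:133561101-133561122 and chr4:133560463-133560484 and the Lin28b matches at chr10:45100825-45100846 and chr10:45096863-45096884.
Lin28a, base 909 of the 3′ UTR: agcctgttgaaCTACCTCattt
Lin28a, base 1547 of the 3′ UTR: tcgccacaaacCTACCTCactg
Lin28b, base 36 of the 3′ UTR: gggcgggaagtCTACCTCatgc
Lin28b, base 3998 of the 3′ UTR: gatggcaccgaCTACCTCttca
A match of letters is a description and not a measured target site. The 3 genes with a match did not move together: Lin28a and Lin28b were lower in Bmal1-/- mESCs and Sall4 was higher.

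The other genes of let-7 processing, Lin28 activity and known let-7 targets formed a list of 18 genes, all tested. Of these, 8 were higher, 4 were lower and 6 did not pass, with a median log2 fold change of 0.065, against 24.0% higher, 28.6% lower and a median of −0.030 over all genes tested, which also stand against the lists described further on. The median ran from 0.021 without the second wild-type library to 0.11 without the first, and 5 genes were higher without the second Bmal1-/- library. The 4 largest changes among those that passed were Hmga2 at 0.99 (SE 0.074), Mycn at −0.84 (SE 0.055), Ago2 at 0.82 (SE 0.068) and Trim71 at 0.43 (SE 0.081). Hmga2, a chromatin protein and classical let-7 target with 4 seed matches, rose from 357 and 339 to 682 and 698. Mycn, a transcription factor of proliferating stem cells with no seed match, fell from 1695 and 1613 to 901 and 945. Ago2, the Argonaute protein that carries microRNAs, rose from 3288 and 2591 to 5144 and 5168, and Trim71, an RNA-binding protein with 2 seed matches, from 1773 and 1351 to 2178 and 1987. Ago2 has 1 seed match. Other genes of the list hold matches too, so these 4, picked by the size of their change, cannot show whether match and direction go together. A part of let-7 in these changes was not tested.

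The promoters of Lin28a, Utf1 and Lin28b are shown because these genes were lower in Bmal1-/- mESCs and a RefSeq promoter (250 bases before to 50 after the start, GRCm38.p6) was found for them. RefSeq promoters were matched for 5 of the 10 genes, 6 promoters in all, the others being those of Tdgf1 and Nr5a2. Bmal1 with its partner Clock is known to bind the E-box CACGTG, which was searched for along with the GC box GGGCGG on both strands; matches are in capitals, none of one motif overlapped the other, and the first 2 of Utf1 share 1 base. An E-box occurs in 7.15% of 32851 promoters of that length and, of the 6 promoters, in that of Lin28b, 49 bases before the start. A GC box occurs in 35.7% of promoters and was found 4 times in Utf1, once in Lin28a and once in Tdgf1. The regions are chr4:134018767-134019066 (minus strand) for Lin28a, chr7:139943606-139943905 (plus strand) for Utf1 and chr10:45470152-45470451 (minus strand) for Lin28b.
Lin28a: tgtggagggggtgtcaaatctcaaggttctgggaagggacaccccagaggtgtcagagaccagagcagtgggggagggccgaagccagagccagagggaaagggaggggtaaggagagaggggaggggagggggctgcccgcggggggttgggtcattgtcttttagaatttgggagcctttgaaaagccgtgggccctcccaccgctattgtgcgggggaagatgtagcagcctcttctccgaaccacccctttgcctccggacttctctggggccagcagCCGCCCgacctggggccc
Utf1: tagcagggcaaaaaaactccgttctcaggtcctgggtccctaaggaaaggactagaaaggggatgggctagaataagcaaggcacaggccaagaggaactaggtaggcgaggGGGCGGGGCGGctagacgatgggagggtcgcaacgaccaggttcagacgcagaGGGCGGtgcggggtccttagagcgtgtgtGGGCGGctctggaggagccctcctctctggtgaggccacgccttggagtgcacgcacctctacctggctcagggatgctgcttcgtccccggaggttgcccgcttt
Lin28b: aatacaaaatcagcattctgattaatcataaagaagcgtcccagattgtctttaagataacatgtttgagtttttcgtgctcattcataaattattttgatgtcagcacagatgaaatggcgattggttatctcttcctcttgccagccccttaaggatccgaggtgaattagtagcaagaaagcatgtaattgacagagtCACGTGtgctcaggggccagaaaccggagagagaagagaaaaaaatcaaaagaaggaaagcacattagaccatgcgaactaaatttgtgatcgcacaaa
Binding of Bmal1 was not measured in these data, and a match says only that the letters are in the window.

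Dppa2 rose most among the 10 genes, to 183% of its wild-type mean, while its neighbour and paralog Dppa4 did not pass the test. Both encode small chromatin proteins with a SAP domain, known to act as a pair, and in mESCs they are known as activators of Dux and through it of genes of the 2-cell embryo. Dppa2 (ENSMUSG00000072419) lies at chr16:48310590-48319836 and Dppa4 (ENSMUSG00000058550) at chr16:48283848-48294405, both on the plus strand, with 16185 bases from the end of Dppa4 to the start of Dppa2. Dppa2 had values of 2581 and 2412 in wild-type and 4503 and 4618 in Bmal1-/-, with a wide gap between the genotypes. Its log2 fold change was 0.87 (SE 0.045, 95% interval 0.78 to 0.96, adjusted p = 2.3e-12), so that the interval stopped short of 2-fold.

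Dppa4 had values of 2284 and 2383 in wild-type and 2449 and 2450 in Bmal1-/-. The values did not overlap, but the distance between the groups was smaller than that between the wild-type libraries. On the log2 scale the change was 0.070 (SE 0.046, 95% interval −0.026 to 0.17, adjusted p = 0.21), an interval that leaves out any rise as large as that of Dppa2. When libraries were instead scaled to equal totals, Dppa4 passed (0.13, adjusted p = 0.022).

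Within each library, the log2 ratio of Dppa2 over Dppa4 was 0.18 and 0.018 in wild-type and 0.88 and 0.91 in Bmal1-/-. The difference of the means was 0.80, against SDs of 0.11 and 0.025, and the exact permutation test again gave its smallest possible value, p = 0.333. Per length, Dppa2 mRNA stood at 0.890 and 0.797 of Dppa4 mRNA in wild-type and at 1.45 and 1.48 of it in Bmal1-/-. The order of the 2 paralogs was thus opposite in the genotypes.

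**Figure D2:**
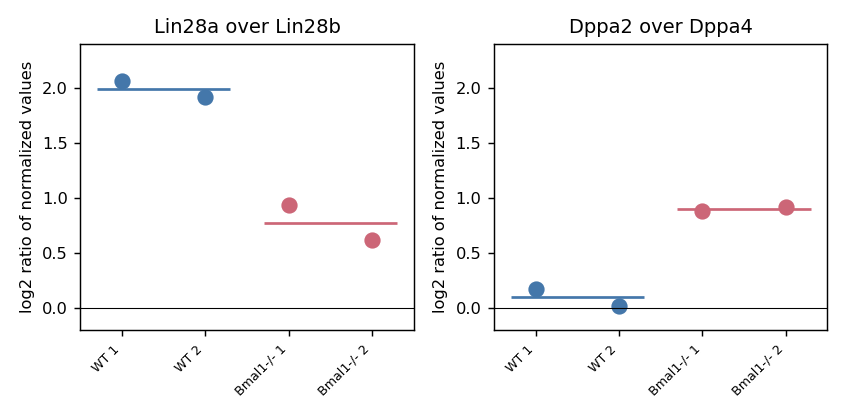
Log2 ratio of the normalized values of Lin28a over Lin28b (left) and of Dppa2 over Dppa4 (right) in each library, with each point 1 library and each line the mean of 2. The Lin28 ratio was lower and the Dppa ratio higher in both Bmal1-/- libraries than in both wild-type libraries.

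The genes of the 2-cell state moved far more than Dppa2. Of 17 listed genes 14 were in the table and 13 were tested, and all 13 were higher in Bmal1-/- mESCs and passed 2-fold, with log2 fold changes of 2.73 to 3.91 and a median of 3.46. Summed over the list, the values were 300.2 and 386 in wild-type and 3926 and 3846 in Bmal1-/-. The largest changes were those of Zscan4e at 3.91 (SE 0.23), Zscan4c at 3.79 (SE 0.13), Zscan4f at 3.69 (SE 0.18) and Usp17ld at 3.51 (SE 0.24). Zscan4 genes encode zinc finger proteins that mark a small fraction of mESCs resembling the 2-cell embryo, and Usp17l genes encode deubiquitinases. The other 9 were Tdpoz1, which changed least at 2.73 (SE 0.29), and Tdpoz3, Tdpoz4, Usp17la, Usp17lc, Usp17le, Zfp352, Zscan4b and Zscan4d, all of them above 3 on the log2 scale. Dux (Duxf3), chosen for mention after its values were seen, was too low to be tested, with values of 2.11 and 1.06 in wild-type and 12.2 and 11.4 in Bmal1-/-. Most of these genes belong to families of near-identical copies whose reads can be shared between members, so single values are uncertain.

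Dppa3 fell to 51.7% of its wild-type mean. It encodes Stella (PGC7), a small protein of the oocyte, early embryo and germ cells that is known to bind Uhrf1 and to shape DNA methylation. The gene (ENSMUSG00000046323, chr6:122576428-122580290, plus strand) had values of 1148 and 1157 in wild-type and 601 and 590 in Bmal1-/-. The libraries of a genotype nearly coincided, and the 2 pairs lay almost 2-fold apart. Its log2 fold change was −0.95 (SE 0.060, 95% interval −1.08 to −0.83, adjusted p = 5.4e-11), and 238 genes tested had a lower one.

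Genes of DNA methylation and its removal, the process on which Dppa3 is known to act, moved in both directions. Of 11 listed, 6 were higher, 2 were lower and 3 did not pass, with a median of 0.13. Without the second wild-type library 5 were higher and 3 lower, with a median of 0.070. The largest changes were those of Tet3 (0.96, SE 0.10) and Tet2 (0.65, SE 0.049), which oxidise methylated cytosine, and of Dnmt3l (0.82, SE 0.086) and Dnmt3a (0.59, SE 0.057), a cofactor and an enzyme of new methylation. Dnmt3a rose from 793 and 774 to 1175 and 1179, and Tet3 from 159 and 159 to 319 and 303. DNA methylation itself was not measured.

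Genes around Dppa3 are known as a cluster of pluripotency genes, and its neighbours did not move as one. Gdf3, a ligand of the Tgf-beta family whose start lies 16.3 kb away, was lower, with values of 3031 and 3080 in wild-type and 2541 and 2472 in Bmal1-/- (log2 fold change −0.29, SE 0.044, adjusted p = 1.8e-05). Nanog, whose start lies 81.1 kb away, was higher, with 22379 and 22465 against 26312 and 27127 (0.25, SE 0.037, adjusted p = 8.5e-06).

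Dppa5a was the most abundant of the 10 mRNAs and moved little. It encodes an RNA-binding protein with a KH domain (Esg1), typical of mESCs and dispensable for them. The gene (ENSMUSG00000060461, chr9:78214859-78215984, minus strand) had values of 44478 and 49575 in wild-type and 43408 and 43076 in Bmal1-/-. The distance between the wild-type libraries was several times that between the lower of them and the Bmal1-/- libraries. The log2 fold change was −0.12 (SE 0.044, 95% interval −0.21 to −0.027, adjusted p = 0.028). This call was lost without the second wild-type library (−0.041, adjusted p = 0.41), without either Bmal1-/- library, and in DESeq2 (−0.090, adjusted p = 0.14), and the direction turned under quantile normalization (0.054, adjusted p = 0.21).

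The list with Dppa5a held 8 further genes, of the KH family apart from Dppa1. Of these, 6 were tested, of which 4 were higher, 1 was lower and 1 did not pass. The Khdc1 genes, known from oocytes and early embryos, moved by more than 2-fold: Khdc1b by 2.61 (SE 0.34), Khdc1c by 2.56 (SE 0.17) and Khdc1a by 2.08 (SE 0.26) on the log2 scale. They stood low, with Khdc1c at 41.1 and 29.7 in wild-type and 208 and 215 in Bmal1-/-. Khdc3, an oocyte gene of the same family, fell by 0.79 on the log2 scale (SE 0.084), from 475 and 481 to 286 and 266. Ooep, which starts 10.5 kb from Dppa5a, was at 0.14 (SE 0.056, adjusted p = 0.036). The median of the list was 1.11, and it rested on few low genes, since it was 0.14 over those with a mean value of at least 100.

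Utf1 fell to 54.1% of its wild-type mean. It encodes a chromatin-bound transcription cofactor of undifferentiated cells, known as a target of Pou5f1 and Sox2. The gene (ENSMUSG00000047751, chr7:147129688-147131011, plus strand) had values of 1314 and 1304 in wild-type and 731 and 685 in Bmal1-/-. The genotypes were well apart, by more than 10 times the spread within either. Its log2 fold change was −0.89 (SE 0.059, 95% interval −1.01 to −0.76, adjusted p = 1.2e-10), so that the intervals of Lin28a, Dppa3 and Utf1 were the 3 among the 10 genes that reached 2-fold. Its neighbours Kndc1 (−0.80, SE 0.27, adjusted p = 0.018) and Zfp511 (−0.35, SE 0.088, adjusted p = 0.0024), which start 49.1 and 92.6 kb away, were also lower.

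Markers of the primed epiblast, trophoblast and neural cells had lower sums in Bmal1-/- mESCs. Primed epiblast markers summed to 2579 to 2836 in wild-type and 2140 to 2230 in Bmal1-/-, with 2 of 5 tested, both lower, and Pou3f1 at or under 3 reads. The 2 changed by −0.26 (Dnmt3b) and −1.21 on the log2 scale. Dnmt3b, which is also on the list of DNA methylation, makes up most of that sum. Trophoblast markers summed to 1778 to 1787 and to 739 to 795, with 3 of 6 tested, all lower, and Elf5 at or under 3 reads. The 4 neural markers that were tested summed to 3937 and 3640 in wild-type and to 2269 and 2122 in Bmal1-/-, with 2 of them lower and 0 higher. Primitive endoderm markers summed to 171 to 189 and to 191 to 195, with 4 of 6 tested, 2 higher and 1 lower. Mesoderm markers summed to 285 to 322 and to 271 in both Bmal1-/- libraries, with 3 of 6 tested, none of them past the test, and Mesp1 at or under 3 reads. The part of such cells in the values of the 10 genes was not tested.

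**Figure D3:**
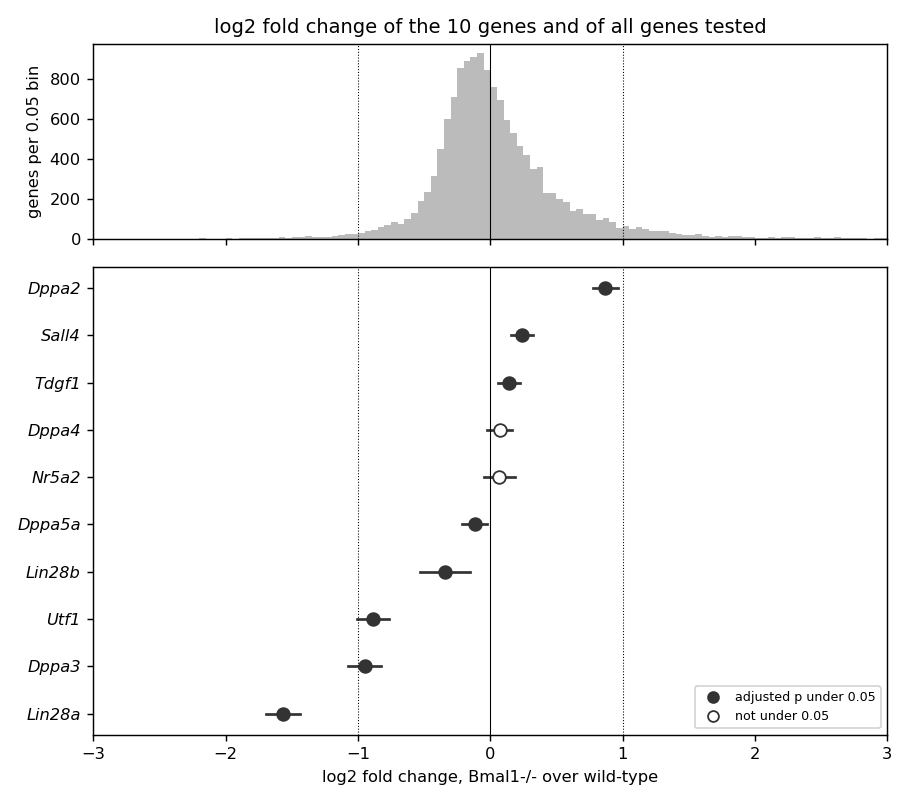
Lower panel: log2 fold change (Bmal1-/- over wild-type) of the 10 genes with 95% intervals, filled where the adjusted p-value was under 0.05. Upper panel: number of genes tested per bin of 0.05 over the same axis, which leaves out genes beyond 3 in either direction; dotted lines mark 2-fold, which Lin28a alone passed.

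Tdgf1 rose by a small amount, to 110.3% of its wild-type mean. It encodes Cripto, a membrane-anchored co-receptor through which Nodal signals to its receptors. The gene (ENSMUSG00000032494, chr9:110842114-110848662, minus strand) had values of 10028 and 10650 in wild-type and 11221 and 11578 in Bmal1-/-. The groups did not overlap, but the step between them was about as large as the distance between the wild-type libraries. On the log2 scale the change was 0.14 (SE 0.040, 95% interval 0.058 to 0.23, adjusted p = 0.0056), and the call was lost without the second Bmal1-/- library (0.12, adjusted p = 0.078). Its neighbours Lrrc2 (0.19, SE 0.057, adjusted p = 0.0070) and Als2cl (0.28, SE 0.079, adjusted p = 0.0047), which start 5.4 and 66.3 kb away, were also higher.

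The Nodal pathway was mixed. Of 17 listed genes 14 were tested, of which 4 were higher, 4 were lower and 6 did not pass, with a median of 0.00086, or −0.047 without the second wild-type library, where 2 were higher and 5 lower, and −0.022 without the second Bmal1-/- library. Lefty1, an inhibitor and target of Nodal, fell from 958 and 1084 to 618 and 606 (log2 fold change −0.73, SE 0.067). Foxh1, the DNA-binding partner of Smad2, was lower as well (−0.52, SE 0.059). Pcsk6 (0.66, SE 0.042) and Furin (0.56, SE 0.065), the proteases that process Nodal, were higher. Gdf1 and Acvr1c, another ligand and another receptor, were at or under 3 reads in every library.

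Sall4 rose to 118% of its wild-type mean. It encodes a zinc finger transcription factor of the inner cell mass that binds the NuRD repressor complex. The gene (ENSMUSG00000027547, chr2:168573832-168593443, minus strand) had values of 5597 and 5483 in wild-type and 6632 and 6422 in Bmal1-/-. The genotypes were apart by several times their own spread. Its log2 fold change was 0.24 (SE 0.040, 95% interval 0.15 to 0.32, adjusted p = 4.7e-05). The neighbour Atp9a, which starts 25.5 kb away, was higher too (0.37, SE 0.047, adjusted p = 1.6e-06).

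Among the paralogs of Sall4 and the subunits of NuRD, 15 genes and all tested, 1 was higher, 6 were lower and 8 did not pass, with a median of −0.096. The 7 of 15 that passed are a share close to the 52.6% of all genes. Sall1 fell from 5576 and 4984 to 3732 and 3734 (log2 fold change −0.50, SE 0.048). The subunits Mta1 (−0.42, SE 0.051) and Mbd3 (−0.38, SE 0.047) were lower and Gatad2b (0.56, SE 0.076) was higher. With equal library totals, 3 genes of the list were higher and 5 lower.

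Nr5a2 did not pass the test. It encodes Lrh-1, an orphan nuclear receptor known to bind the regulatory regions of Pou5f1. The gene (ENSMUSG00000026398, chr1:138740161-138857004, minus strand) had values of 1685 and 1494 in wild-type and 1618 and 1712 in Bmal1-/-. The groups overlapped, since the first wild-type library lay above the first Bmal1-/- library. The log2 fold change was 0.069 (SE 0.058, 95% interval −0.051 to 0.19, adjusted p = 0.33). The second wild-type library decided its value: it was −0.018 without that library and 0.16, past the test, without the first wild-type library (adjusted p = 0.020).

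The pluripotency transcription factors that work with Sall4 and Nr5a2 moved by less than 2-fold. Of 13 listed 12 were tested, of which 7 were higher, 4 were lower and 1 did not pass, with a median of 0.17. Tfcp2l1 (0.40, SE 0.044), Tbx3 (0.36, SE 0.044), Prdm14 (0.29, SE 0.051) and Nr0b1 (0.29, SE 0.045) changed most among those that passed. Sox2 was at −0.17 (SE 0.043) and Pou5f1 at −0.13 (SE 0.036), and with equal library totals or quantile normalization 7 genes of the list were higher and 1 lower. Nr5a1, the paralog of Nr5a2, was at or under 3 reads in every library.

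**Figure D4:**
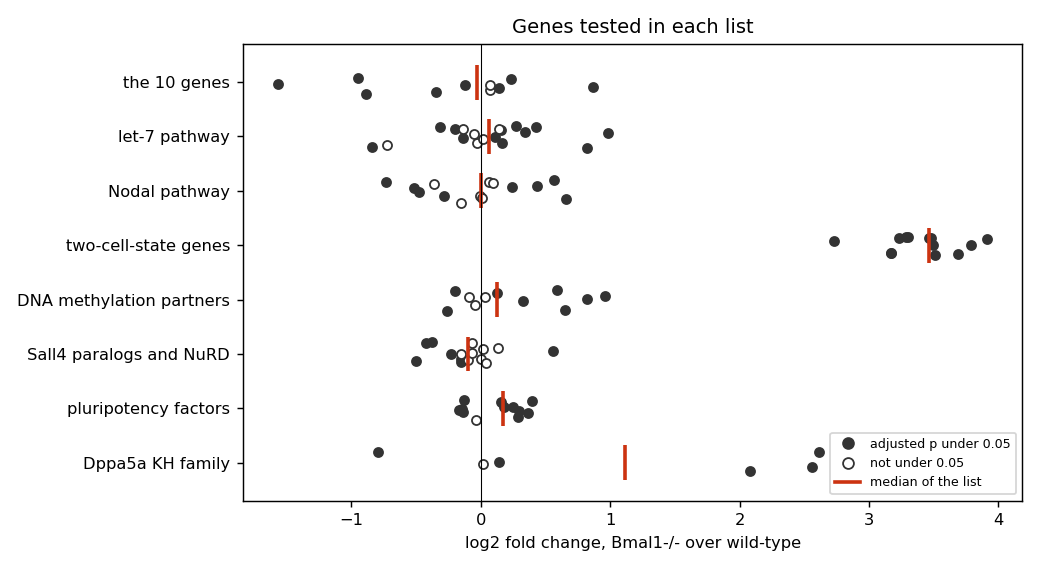
Log2 fold change (Bmal1-/- over wild-type) of each gene tested in the 10 genes and in the 7 lists, filled where the adjusted p-value was under 0.05, with the median of each list in red. The 2-cell-state genes lay between 2.73 and 3.91, while most genes of the other lists lay within 1 of 0.

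Expression differed widely between the 10 genes, and is compared here within a genotype as TPM, the reads per length of merged exons scaled to the same total in each library, given as mean ± SD (n = 2). In wild-type mESCs Dppa5a stood first at 8566 ± 607, followed by Tdgf1 at 606 ± 22.3 and Dppa4 at 172 ± 4.14. Dppa3 at 146 ± 0.080 and Dppa2 at 145 ± 7.74 did not differ beyond their spread. Below them came Utf1 at 120.3 ± 1.29, Sall4 at 113 ± 2.29, Lin28a at 52.4 ± 3.32, Nr5a2 at 46.7 ± 4.24 and Lin28b at 5.07 ± 0.038. No other neighbours in this order overlapped. Dppa5a lay above 99.97% of all genes tested and Lin28b above 31.6%.

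In Bmal1-/- mESCs the order was different in the middle and the same at its ends. Dppa5a stood at 8752 ± 6.74, Tdgf1 at 742 ± 19.9 and Dppa2, now above Dppa4, at 293 ± 6.58. Dppa4 followed at 199 and 201 in the 2 libraries, Sall4 at 148 ± 2.67, Dppa3 at 83.7 ± 0.70 and Utf1 at 72.3 ± 3.00. Nr5a2 at 54.4 ± 2.42 stood above Lin28a at 19.6 ± 0.61, and Lin28b was last at 4.44 ± 0.56. None of these neighbours overlapped. Per-length levels are not compared between genotypes, because the median gene moved by 0.12 on the log2 scale there.

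**Figure D5:**
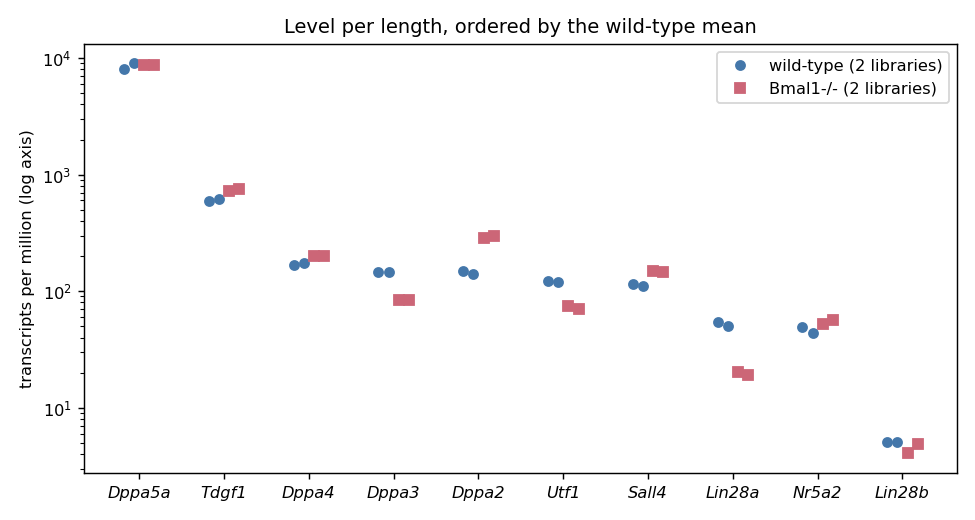
Level per length (TPM over merged exons, log axis) of the 10 genes in the 2 wild-type (blue circles) and 2 Bmal1-/- (red squares) libraries, ordered by the wild-type mean. Dppa5a stands highest and Lin28b lowest in every library, and Lin28a and Nr5a2 change places between the genotypes.

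Neighbouring genes were described by position. Within 100 kb of the starts of the 10 genes lay 36 protein-coding neighbours, of which 21 were tested, 8 were higher and 5 lower, against 24.0% higher and 28.6% lower among all genes. The neighbours that passed had the direction of Lin28a, Utf1, Tdgf1 and Sall4 around those genes. Around Dppa3 they went both ways, and around Dppa5a they were higher while Dppa5a was lower. Around Lin28a, Aim1l (−0.61, SE 0.11, adjusted p = 1.1e-04) and Hmgn2 (−0.27, SE 0.043, adjusted p = 2.6e-05) were lower, starting 47.1 and 50.2 kb away. Around Dppa5a, Ddx43 (0.48, SE 0.086, adjusted p = 8.9e-05) and E330016A19Rik (0.68, SE 0.13, adjusted p = 1.4e-04) were higher. Gm10639, 78.3 kb from Dppa5a, held 1 and 2 reads in wild-type and 21 in each Bmal1-/- library, and was the 1 neighbour past 2-fold. It is counted among the 8 higher, but it reached the mean value of 10 needed for testing only through the Bmal1-/- libraries. The filter thus favoured its call.

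Copies elsewhere in the genome could take reads of some of these genes. A search with BLAST for stretches of at least 200 bases and 85% identity outside each gene found 12 for Dppa2, 10 for Dppa5a, 5 each for Dppa4, Tdgf1 and Lin28a, 3 for Dppa3, 2 for Nr5a2, 1 each for Lin28b and Sall4, and 0 for Utf1. The longest covered 101.6% of the transcript of Dppa5a (gaps counted), 98.4% of Dppa3 and 82.5% of Nr5a2. It covered 67.8% for Dppa4, 61.3% for Dppa2, 52.4% for Tdgf1, 16.3% for Lin28a, 9.21% for Sall4 and 8.70% for Lin28b. Annotated pseudogenes at these places held at most 20 reads in any library for Dppa5a, 12 for Dppa2, 6 for Dppa4, 2 for Tdgf1 and 1 for Dppa3. The 10 genes held 313 to 46669 reads. Protein-coding genes there held up to 232 reads (Pigp, for Dppa5a), with 2210010C17Rik at 126 to 137 (Dppa4) and Dppa5b at 40 to 51 (Dppa5a). Some differed between the genotypes. Dmgdh (Dppa3) held 56 and 57 reads in wild-type and 118 and 115 in Bmal1-/-. Agpat4 (Tdgf1) held 188 and 203 in wild-type and 109 and 100 in Bmal1-/-. Which gene those reads came from was not tested. On the opposite strand, Gm13061 overlaps Lin28a with 0 to 2 reads and Gm14261 overlaps Sall4 with 2 to 5. Reads of overlapping or near-identical genes cannot be fully told apart.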

How the data were processed

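The authors isolated total RNA, prepared stranded mRNA libraries (TruSeq) and sequenced paired reads. Per the labels and the submitters' processing notes, bcl2fastq 2.18.0.12, cutadapt 1.9.1 and STAR 2.5.2b with mm9 were used. The counting tool, its strand setting and the annotation are not given in the sources used here. The deposited signal is the read count per gene divided by a TMM factor of the library, neither log-transformed nor per length. Dividing by the value of 1 read gave whole reads for 100% of values (tolerance 0.01).

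Those genes whose mean value reached 10 were tested with limma 3.58.1 in R 4.3.3 on log2(value + 1), using eBayes with trend and 18.1 prior degrees of freedom. This is a scale that understates changes of low genes. Tests were two-sided, 2 libraries against 2, with no covariate. A 2-fold call needed an absolute log2 fold change above 1 and an adjusted p-value under 0.05. Alternatives were other filters, pseudocounts and scalings, limma without trend, a replicate block, each library left out, and edgeR 4.0.16 (1091 genes called past 2-fold) and DESeq2 1.42.0 on whole reads. The tests were tried on simulated data.

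The 10 genes, the lists (written by hand, in part matched through older symbols) and the tests were chosen with earlier results of these data known. Named beyond the 10 genes are Arntl, the 4 largest changes past the test in each list, any past 2-fold, Nanog, Pou5f1 and Sox2, and neighbours past the test. Lengths, positions and 3′ UTRs came from the GENCODE annotation of NCBIM37 (mm9). BLAST 2.17.0, Python 3.11.15, pandas 2.3.3, numpy 2.4.6, scipy 1.17.1 and matplotlib 3.10.9 were used. Raw reads and the study's other assays were not analysed here. Of 1 marker list, only the genes that were tested are reported here.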

Additional observations from a re-analysis of the deposited data

How the results depend on the processing

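Lin28a, Dppa2, Dppa3, Utf1 and Sall4 kept their direction and passed the test under all 16 alternatives, and 1 gene of the 10 passed 2-fold in each. With 1 library left out, log2 fold changes ran from −1.62 to −1.51 for Lin28a, 0.82 to 0.92 for Dppa2, −0.96 to −0.94 for Dppa3, −0.93 to −0.84 for Utf1, 0.21 to 0.26 for Sall4, 0.040 to 0.10 for Dppa4, −0.20 to −0.041 for Dppa5a, 0.098 to 0.18 for Tdgf1, −0.47 to −0.22 for Lin28b and −0.018 to 0.16 for Nr5a2. The number of the 10 genes that passed ran from 6 to 9. The ratio differences kept their direction, from −1.38 to −1.06 for Lin28a over Lin28b and 0.72 to 0.88 for Dppa2 over Dppa4.

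Without a filter on low values 5 of the 10 genes passed, and the call was lost for Dppa5a (−0.12, adjusted p = 0.24), Tdgf1 (0.14, adjusted p = 0.082) and Lin28b (−0.35, adjusted p = 0.080). Without the trend in limma the same 3 calls were lost, again leaving 5, with unchanged fold changes (−0.12, 0.14 and −0.35), and 5060 genes of all passed in place of 7639. Adjusted p-values of limma rose as well for genes that kept their call, for Lin28a from 2.7e-14 to 0.005 and for Dppa2 from 2.3e-12 to 0.008. DESeq2 lost Lin28b (−0.31) and Dppa5a (−0.090). Dppa5a also missed the test with a mean of at least 1 (−0.12), median-ratio size factors (−0.10) and equal library totals (−0.059), and turned direction under quantile normalization (0.054). Equal library totals brought Dppa4 past the test (0.13). The cause of these changes was not tested.

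Over all genes, 835 rose and 211 fell by 2-fold. A mean of at least 100 left 318 such calls among 10486 genes tested, against 1046 among 14510. All 10 genes lie above that mean, and 6401 of the 10486 passed the test, 8 of the 10 among them. Quantile normalization changed the share of higher calls among the 2-fold calls from 79.8% to 60.7%. At adjusted p under 0.05 that share was 45.7%, and 56.8% with equal library totals. The replicate numbers were shared by the genotypes, but deviations of same-numbered libraries did not go together across genes (correlation −0.020). The titles give the replicate numbers as experiments (Exp) and do not say whether a number marks a shared day or batch. This correlation cannot settle that question, since an effect on few genes would hardly move it. With a replicate block 8 of the 10 genes passed, and 7949 genes in all. Levels per length moved with the longest transcript in place of merged exons, where Sall4 stood above Utf1. With 2 libraries a genotype, exact tests of single values cannot pass.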
